A study of Mus musculus with 4 samples.

Results

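The 7 genes described here tell which fast transmitter a neuron makes and packs: Gad1, Gad2 and Slc32a1 for GABA, Slc6a5 for glycine, and Slc17a6, Slc17a7 and Slc17a8 for glutamate. They were taken by symbol from the 31053 genes of the deposited matrix, and all 7 were found once. The data came from single-nucleus RNA sequencing of the superior colliculus, a midbrain centre for vision and orienting, in C57BL/6J mice with no genetic change or treatment named in the labels. Embryonic day 19 (E19) and postnatal days 4, 8 and 21 (P4, P8 and P21) gave 1 library each, and every library pooled tissue from several animals, so differences between stages are differences between libraries with no replicate check. The authors' table of nuclei named 9 classes; it placed 3459 nuclei among inhibitory neurons (IN, 12 subtypes) and 4093 among excitatory neurons (EN, 13 subtypes) of 9724 nuclei in all.

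GABA is made from glutamate by the decarboxylases GAD67 (Gad1) and GAD65 (Gad2), and the vesicular transporter VGAT (Slc32a1) loads GABA or glycine into synaptic vesicles. Glutamate is loaded by the vesicular transporters VGLUT2 (Slc17a6), VGLUT1 (Slc17a7) and VGLUT3 (Slc17a8). In the midbrain most glutamate neurons use VGLUT2, whereas VGLUT1 is the main form of the cerebral cortex, and VGLUT3 is known from neurons that also release another transmitter.

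Levels are given as counts of unique molecular identifiers (UMIs) per 1000000 UMIs of a class in a library (CPM), and intervals in parentheses are exact 95% intervals that cover counting error only. How classes were named is not given in the sources used here, and since the names rest on these same nuclei, a difference between the classes is a description with no test. The median nucleus held 6075, 7684, 9265 and 14009.5 UMIs among inhibitory neurons at E19, P4, P8 and P21, and 8051.5, 11738, 14158 and 19601 among excitatory neurons. The fixed neuron markers Snap25, Rbfox3 and Syt1 together stood at 1728 to 3542 CPM in the 8 neuron profiles, against 45.1 to 666 CPM in the 5 non-neuronal classes used below, lowest in endothelial nuclei at E19 and highest in microglia at P21. Nuclei of these 5 classes served as a comparison for stray UMIs: 305, 400, 482 and 777 astrocyte, oligodendrocyte lineage, vascular leptomeningeal, microglial and endothelial nuclei, called non-neuronal nuclei below. Whether some of them make RNA of the transmitter genes themselves was not tested. A UMI of a GABA gene was found in 23.4%, 38.9%, 48.3% and 40.5% of oligodendrocyte lineage nuclei. In astrocytes the shares were 33.7%, 33.2%, 36.5% and 30.3%. Their median depth was 4612, 4470.5, 5108 and 6022 UMIs. Between libraries, 9 nucleus barcodes were shared.

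The promoter stretches of the 4 members that carried most UMIs are shown because these genes divided the neuron classes. They are RefSeq sequences of build GRCm38.p6, all on the plus strand, of which Gad1 and Gad2 are cut off where annotated exon sequence begins. The RefSeq start of Gad1 lies inside its longer GENCODE span. Capitals mark E-boxes (CANNTG) and the motif GATAA, searched on both strands with no overlap between the marked matches; on the plus strand the latter reads as TTATC.
Gad1 chr2:70561879-70562041: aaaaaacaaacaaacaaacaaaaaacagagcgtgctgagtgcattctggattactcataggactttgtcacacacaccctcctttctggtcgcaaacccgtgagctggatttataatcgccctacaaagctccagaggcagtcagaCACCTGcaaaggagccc
Gad2 chr2:22622077-22622204: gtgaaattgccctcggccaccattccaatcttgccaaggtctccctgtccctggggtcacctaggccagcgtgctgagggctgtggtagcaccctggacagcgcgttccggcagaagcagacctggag
Slc32a1 chr2:158610508-158610757: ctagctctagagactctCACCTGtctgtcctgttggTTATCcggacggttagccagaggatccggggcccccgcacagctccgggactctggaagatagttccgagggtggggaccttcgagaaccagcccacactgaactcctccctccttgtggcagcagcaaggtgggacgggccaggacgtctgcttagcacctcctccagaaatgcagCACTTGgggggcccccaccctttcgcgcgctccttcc
Slc17a6 chr7:51621580-51621829: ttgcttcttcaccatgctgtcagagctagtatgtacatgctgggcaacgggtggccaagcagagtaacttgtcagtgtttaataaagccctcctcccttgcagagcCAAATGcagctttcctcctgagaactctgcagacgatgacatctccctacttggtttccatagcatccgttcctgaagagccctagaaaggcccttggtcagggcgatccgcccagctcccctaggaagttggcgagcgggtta
The Slc32a1 stretch held 2 E-boxes and 1 GATAA, and the Gad1 and Slc17a6 stretches held 1 E-box each. No match fell in the Gad2 stretch as printed. Among 32851 RefSeq windows of 250 bases before a gene start, 66.2% held an E-box and 22.6% held GATAA, so a match is a description of the letters and no sign of a site. In GENCODE M21 on the same build, Gad1 (ENSMUSG00000070880) spans chr2:70553072-70602014, Gad2 (ENSMUSG00000026787) chr2:22622205-22693874 and Slc32a1 (ENSMUSG00000037771) chr2:158610767-158615748, all on the plus strand. Slc17a6 (ENSMUSG00000030500) spans chr7:51622006-51671119, Slc17a7 (ENSMUSG00000070570) chr7:45163949-45176142 and Slc6a5 (ENSMUSG00000039728) chr7:49910146-49963856, also on the plus strand, whereas Slc17a8 (ENSMUSG00000019935) spans chr10:89574020-89621253 on the minus strand. Gad1 overlaps Gad1os and Slc32a1 overlaps Gm14205 on the opposite strand, and because counting by strand is not stated in the sources used here, UMIs of such partners could be shared.

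The 2 decarboxylase genes and Slc32a1 were the most abundant members in inhibitory neurons, and Slc17a6 was the most abundant in excitatory neurons, in every library. By a rule of at least a doubling on the log2(CPM + 5) scale with 20 CPM or more on the higher side, every library placed Gad1, Gad2 and Slc32a1 on the inhibitory side and Slc17a6 on the excitatory side. That is 3 of 7 members in the inhibitory direction, where 0.547% of 6219 genes passed, and 1 of 7 in the excitatory direction, where 0.579% passed. Slc6a5, Slc17a7 and Slc17a8 stayed below 20 CPM in both neuron classes in every library and could not pass.

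Gad1 stood in inhibitory neurons at 283 CPM (269 to 297) at E19, 262 CPM (250 to 275) at P4, 282 CPM (272 to 292) at P8 and 236 CPM (227 to 245) at P21. Its excitatory level was 23.9, 17.0, 15.6 and 12.7 CPM, and its non-neuronal level 36.4, 40.9, 56.5 and 30.9 CPM. Inhibitory neurons were thus far above both other groups in each library, and excitatory neurons were below the non-neuronal nuclei. The fold of inhibitory over excitatory neurons was 11.8 (10.4 to 13.5), 15.4 (13.5 to 17.7), 18.0 (15.7 to 20.9) and 18.6 (16.03 to 21.7). Without the deepest nucleus of the series, an excitatory one at P21, the P21 fold was 25.3 (21.2 to 30.3).

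Gad2, which encodes the form of the enzyme found mainly at terminals, stood in inhibitory neurons at 557 CPM (538 to 576), 490 CPM (473 to 508), 444 CPM (432 to 457) and 366 CPM (355 to 378) from E19 to P21. Each library lay below the one before, with intervals that did not overlap. In excitatory neurons Gad2 stood at 23.8, 20.6, 12.1 and 16.8 CPM, and in non-neuronal nuclei at 25.8, 27.1, 35.2 and 32.1 CPM. The fold of inhibitory over excitatory neurons was 23.4, 23.8, 36.9 and 21.8. Without the deepest nucleus of the series the P21 fold was 27.1 (23.5 to 31.5). From E19 to P21 the log2 ratio in inhibitory neurons was -0.60, and that of Gad1 was -0.26, against a median of -0.04 over 7807 genes.

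Slc32a1 stood in inhibitory neurons at 111 CPM (102 to 119), 91.1 CPM (83.9 to 98.8), 54.8 CPM (50.5 to 59.3) and 78.2 CPM (73.1 to 83.5). Its lowest library was P8, unlike the decarboxylase genes, whose lowest library was P21. Excitatory neurons held 10.8, 7.85, 8.26 and 5.13 CPM and non-neuronal nuclei 23.8, 15.8, 16.1 and 10.8 CPM, so the fold between the neuron classes was 10.2, 11.6, 6.63 and 15.2. Per kilobase of gene span, Slc32a1 was the highest member in inhibitory neurons, at 22.2, 18.3, 10.99 and 15.7 CPM per kb, followed by Gad2 at 7.77, 6.84, 6.20 and 5.11 CPM per kb and Gad1 at 5.78, 5.35, 5.76 and 4.82 CPM per kb. Slc32a1 is a short gene with 56.1% of its span in exons, against 15.6% for Gad1 and 8.20% for Gad2, and nuclear RNA is rich in introns, so an order by span depends on that choice.

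Inhibitory nuclei were deeper in each later library. Their Gad1 and Gad2 UMIs per nucleus rose from library to library, while both CPM values were lower at P21 than at E19. Slc32a1 stood at 0.738, 0.789, 0.558 and 1.19 UMIs per inhibitory nucleus, lowest at P8. An inhibitory nucleus held on average 3.72, 4.24, 4.53 and 5.60 UMIs of Gad2 and 1.89, 2.27, 2.87 and 3.60 UMIs of Gad1 from E19 to P21. At P21, 94.2% of inhibitory nuclei held a UMI of Gad2, 89.2% of Gad1 and 67.0% of Slc32a1. Nuclei with no UMI of any of the 6 GABA and glutamate genes made up 1.90% of the inhibitory class at E19.

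Slc17a6 stood in excitatory neurons at 286 CPM (276 to 296), 241 CPM (233 to 249), 182 CPM (175 to 189) and 176 CPM (169 to 183), so that P8 and P21 overlapped and E19 and P4 lay above them. In inhibitory neurons it stood at 46.3 CPM (41.0 to 52.1), 38.8 CPM (34.1 to 44.0), 19.8 CPM (17.2 to 22.6) and 8.32 CPM (6.72 to 10.2), and in non-neuronal nuclei at 55.6, 59.6, 34.1 and 21.3 CPM. The excess of excitatory over inhibitory neurons widened from 6.17-fold (5.46 to 7.01) at E19 to 21.2-fold (17.2 to 26.3) at P21. Over the same span the log2 ratio was -0.68 in excitatory neurons and -1.95 in inhibitory neurons.

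**Figure D1:**
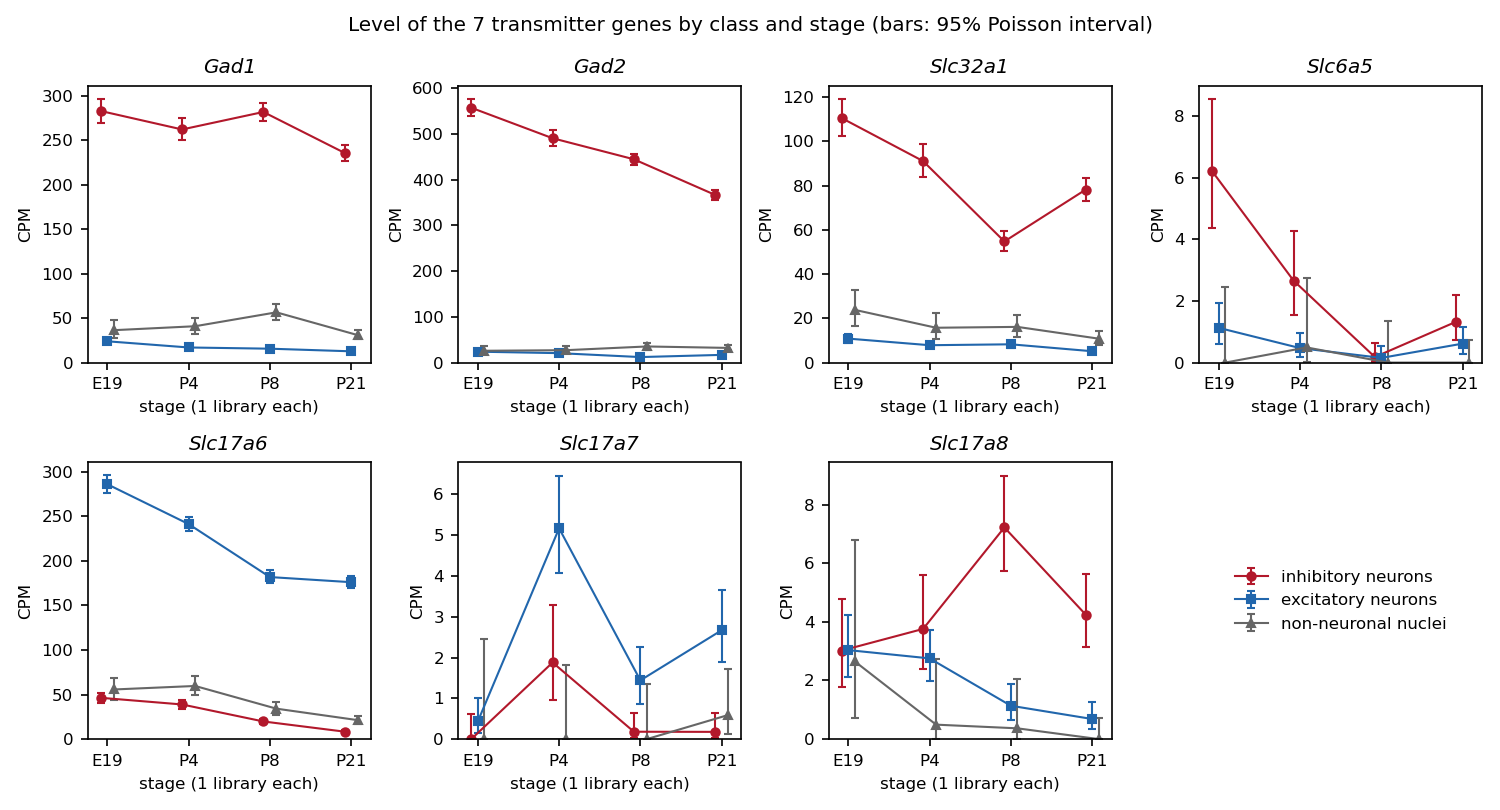
Level of each member in CPM (vertical axis, its own scale in each panel) at E19, P4, P8 and P21 (horizontal axis, 1 library each) in inhibitory neurons (circles), excitatory neurons (squares) and non-neuronal nuclei (triangles); bars are 95% Poisson intervals and lines only join the libraries. Gad2 in inhibitory neurons falls from 557 to 366 CPM and Slc17a6 in excitatory neurons from 286 to 176 CPM, while the opposite neuron class lies at or below the non-neuronal nuclei for Gad1, Gad2, Slc32a1 and Slc17a6.

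Slc17a6 in inhibitory neurons was the 1 member of 7 past the doubling rule between E19 and P21 in that class, where 11.3% of 7807 genes were higher at E19 and 5.83% were higher at P21. In excitatory neurons none of the 7 members passed, where 10.7% of 7650 genes were higher at E19 and 5.35% were higher at P21. The Slc17a6 level of inhibitory neurons lay below that of non-neuronal nuclei in every library, and the latter also fell, from 0.275 to 0.139 UMIs per nucleus between E19 and P21. Inhibitory nuclei held 0.309, 0.336, 0.201 and 0.127 Slc17a6 UMIs, or 1.12, 1.11, 1.04 and 0.91 times the non-neuronal value, and each of these intervals included 1. The part of stray UMIs in the fall was not tested.

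The remaining members were sparse. Slc6a5, the plasma membrane transporter that marks glycine neurons, gave 37, 17, 2 and 15 UMIs in all inhibitory neurons from E19 to P21 and 13, 7, 2 and 9 UMIs in excitatory neurons, against 0, 1, 0 and 0 UMIs in non-neuronal nuclei. The last group held far fewer UMIs of all genes. In CPM, the interval of the fold of excitatory neurons over non-neuronal nuclei included 1 in every library. For inhibitory neurons it included 1 at P4 and P8 and lay above 1 at E19 and P21. Slc17a7 gave 5, 77, 19 and 39 UMIs in excitatory neurons and 0, 12, 2 and 2 in inhibitory neurons. By a floor of 3 counts, which is not the interval used elsewhere, the 0 at E19 allows up to 0.503 CPM. Slc17a8 stood in inhibitory neurons at 3.02 CPM (1.79 to 4.77), 3.76 CPM (2.41 to 5.59), 7.22 CPM (5.72 to 8.98) and 4.25 CPM (3.13 to 5.63), and in excitatory neurons at 3.04, 2.75, 1.14 and 0.685 CPM. The classes overlapped for Slc17a8 at E19 and P4, and inhibitory neurons were 6.35-fold (3.63 to 11.9) higher at P8 and 6.20-fold (3.10 to 13.8) higher at P21.

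Within the inhibitory class the GABA genes differed between subtypes by a few-fold, and none of the 12 subtypes lacked them. Gad1 was highest in IN3 in each library, at 454, 492, 438 and 431 CPM; the next subtype, IN4 at E19, IN9 at P4, IN2 at P8 and IN10 at P21, overlapped it at E19 and P4 and not at P8 and P21. Gad2 was lowest in IN6 at E19, at 335 CPM, and in IN7 at P4, P8 and P21, at 269, 254 and 155 CPM. The highest Gad2 subtype was IN11 at E19 (716 CPM), IN9 at P4 (687 CPM), IN10 at P8 (657 CPM) and IN12 at P21 (633 CPM), so the top of that order was not shared between libraries. At P21, IN7 (129 to 183 CPM) and IN12 (536 to 742 CPM) were the ends of the order, with intervals far apart. Slc32a1 spanned less at P8, from 46.4 CPM in IN3 to 87.4 CPM in IN12 at P8, and the lowest and highest 2 subtypes of that order overlapped within each pair.

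Within the excitatory class Slc17a6 was lowest in EN8 in every library, at 180, 168, 135 and 140 CPM. EN4 was the highest at E19 (390 CPM), EN12 at P4 (314 CPM) and EN2 at P8 and P21 (233 and 227 CPM). EN8 did not overlap the highest subtype in any library. Among inhibitory subtypes Slc17a6 was highest in IN4 at E19, P4 and P8, at 69.0, 84.3 and 29.0 CPM, and in IN10 at P21, at 17.7 CPM (7.64 to 34.8).

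Slc17a8 was concentrated in few inhibitory nuclei. In IN4 it stood at 0, 24.4, 18.9 and 22.0 CPM and in IN5 at 19.6, 2.20, 24.1 and 9.62 CPM, against 2.09, 2.19, 4.05 and 1.33 CPM in the other inhibitory subtypes together. In IN4 the UMIs came from 3, 10 and 11 nuclei at P4, P8 and P21, and in IN5 from 5, 1, 13 and 6 nuclei across the 4 libraries. Of the 24 IN4 nuclei and 25 IN5 nuclei with a Slc17a8 UMI, all held a GABA UMI, and 1 and 6 of them held a Slc17a6 UMI. Among all inhibitory nuclei 98.1% held a GABA UMI, so the GABA count does not set these nuclei apart. In non-neuronal nuclei 6 of 1964 (0.305%) held a Slc17a8 UMI. In IN4 and IN5 the shares were 6.80% (4.40 to 9.95) and 7.72% (5.06 to 11.2). The median depths in this order were 5146, 6661 and 8604.5 UMIs. Of the nuclei of the other inhibitory subtypes, 52 of 2782 (1.87%, 1.40 to 2.44) held one, and of excitatory nuclei 82 of 4093. A share above that of non-neuronal nuclei was thus not particular to IN4 and IN5, which were picked by their Slc17a8 level in these same nuclei. A single nucleus carried up to 8 UMIs in IN4 at P21 and 10 UMIs in IN5 at P8. Without those nuclei the 2 levels were 15.2 and 15.7 CPM. Leaving out the nucleus with most Slc17a8 UMIs took IN4 at P4 from 24.4 to 13.5 CPM and IN5 at P21 from 9.62 to 5.45 CPM.

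Slc17a7 was highest among excitatory subtypes in EN10 at P4, P8 and P21, at 47.8 CPM (30.7 to 71.2), 12.5 CPM (4.60 to 27.3) and 18.5 CPM (8.89 to 34.1), and had no UMI there at E19. The P4 value came from 15 of 60 nuclei, of which 12 also held Slc17a6 and 3 a GABA UMI. Of all EN10 nuclei at P4, 81.7% held a glutamate UMI and 31.7% a GABA UMI. The P21 value came from 1 nucleus with 10 UMIs, and without it the level was 0. In EN7, a subtype with 191 of its 226 nuclei at P4, 28 nuclei of that library held 36 Slc17a7 UMIs, and 27 of the 28 also held Slc17a6. A glutamate UMI was found in 91.6% of all EN7 nuclei at P4. EN2 and EN6 held 9 UMIs each at P21, from 2 and 6 nuclei.

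Slc6a5 was highest in IN1 at E19 and P4, at 14.9 CPM (10.4 to 20.8) and 6.64 CPM (3.79 to 10.8), from 18 and 6 nuclei, every one of which also held a GABA UMI. Of all inhibitory nuclei in those libraries, 96.4% and 97.4% held a GABA UMI. Without the nucleus with most Slc6a5 UMIs the P4 level was 3.74 CPM. IN1 gave 0 and 2 UMIs at P8 and P21, when it held 52 and 70 nuclei against 266 and 205 before. With inhibitory subtypes weighted alike, the E19 level of the class was 1.52 CPM in place of 6.21 CPM. At P21 the highest subtype was IN4, at 9.70 CPM, where 10 of 11 UMIs sat in 1 nucleus. EN11 held 8 UMIs at E19 from 2 nuclei, both with GABA and Slc17a6 UMIs.

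**Figure D2:**
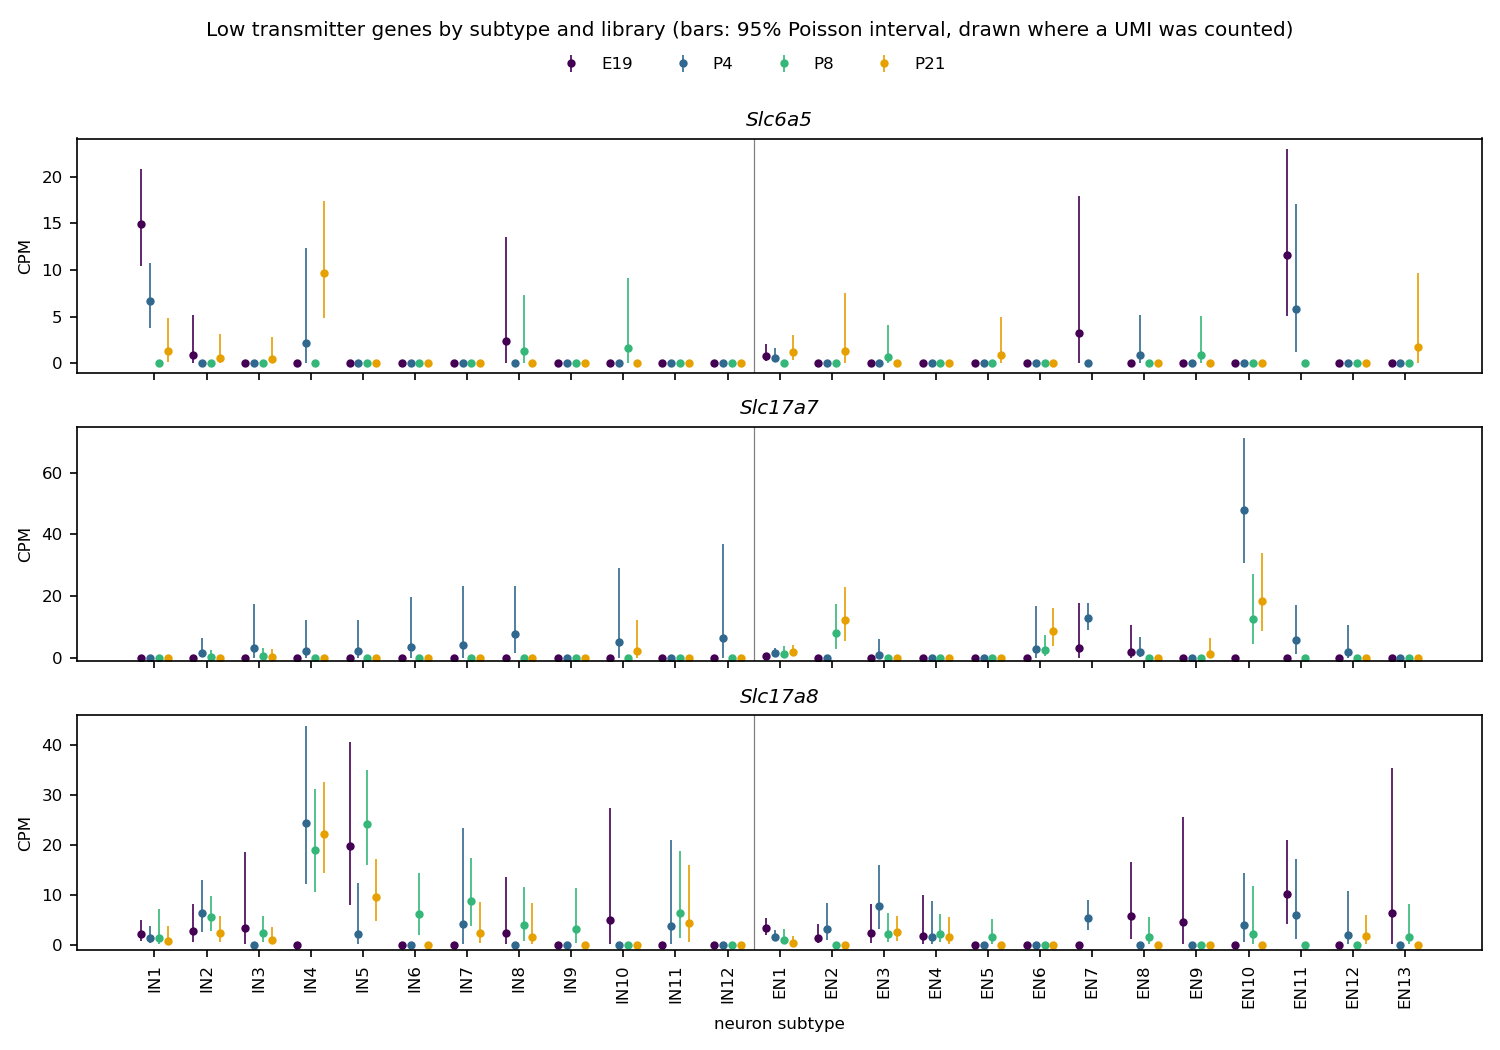
Level in CPM (vertical axis) of Slc6a5, Slc17a7 and Slc17a8 in each inhibitory and excitatory subtype with 10 or more nuclei in a library (horizontal axis), 1 point per library, coloured by stage; bars are 95% Poisson intervals and points at 0 have none drawn. Slc6a5 stands up in IN1 at E19 (14.9 CPM), Slc17a7 in EN10 at P4 (47.8 CPM) and Slc17a8 in IN4 from P4 on (18.9 to 24.4 CPM, the highest from 3 nuclei) and IN5.

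GABA UMIs in excitatory nuclei and glutamate UMIs in inhibitory nuclei were common, and for most nuclei they were as frequent as in non-neuronal nuclei. At least 1 glutamate UMI was found in 24.97%, 27.5%, 20.7% and 15.1% of inhibitory nuclei from E19 to P21, against 23.9%, 25%, 17.4% and 13.3% of non-neuronal nuclei. At least 1 GABA UMI was found in 31.7%, 34.2%, 38.8% and 39.3% of excitatory nuclei, against 33.1%, 34.8%, 43.2% and 36.3% of non-neuronal nuclei, and the intervals of the paired shares overlapped in all 4 libraries on both sides. Neurons were deeper than non-neuronal nuclei. With every nucleus thinned to 2300 UMIs, which left out no nucleus, glutamate UMIs were found in 10.97%, 11.7%, 5.15% and 3.11% of inhibitory nuclei against 16.7%, 17.0%, 8.71% and 6.05% of non-neuronal nuclei, and GABA UMIs in 11.51%, 9.62%, 7.84% and 7.18% of excitatory nuclei against 18.3% to 23.2% of non-neuronal nuclei in the 4 libraries. No expression is read from a share at or below that of non-neuronal nuclei, and where those UMIs came from was not tested. Whether neurons and non-neuronal nuclei carry stray UMIs alike was not tested either. At P4 the 3 epithelial markers Foxj1, Ttr and Kl stood at 678 CPM in astrocytes and 449 CPM in oligodendrocyte lineage nuclei. Inhibitory and excitatory neurons then held 101 and 76.3 CPM. In the other libraries these groups stood at 0 to 7.38 CPM.

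Counted per nucleus, which does not allow for depth, excitatory nuclei held 0.505, 0.561, 0.547 and 0.742 GABA UMIs, against 0.426, 0.425, 0.610 and 0.483 in non-neuronal nuclei, with intervals apart at P4 and P21. Gad2 differed most: excitatory nuclei held 1.61 (1.15 to 2.31), 1.85 (1.39 to 2.51), 0.92 (0.71 to 1.20) and 1.72 (1.40 to 2.11) times the Gad2 UMIs of a non-neuronal nucleus, although their Gad2 CPM was lower in every library. For Gad1 the interval lay below 1 at P8, above 1 at P21 and included 1 at E19 and P4. Of 4093 excitatory nuclei, 40 held 5 or more GABA UMIs and of 1964 non-neuronal nuclei 3 did, the latter with at most 5. Those 40 nuclei held 169, 160, 47 and 152 of the 676, 677, 474 and 506 excitatory GABA UMIs from E19 to P21. Without nuclei of 5 or more GABA UMIs, excitatory nuclei held 0.383, 0.434, 0.495 and 0.523 GABA UMIs. Non-neuronal nuclei then held 0.426, 0.425, 0.601 and 0.471, and the intervals overlapped in every library. Leaving out nuclei by their count lowers these values by construction. The deepest nucleus of the series, an EN11 nucleus at P21 with 244143 UMIs against a class median of 19601, held 51 Gad1, 52 Gad2, 6 Slc32a1, 21 Slc17a6 and 3 Slc17a7 UMIs. Leaving it out took excitatory Gad1 at P21 from 12.7 to 9.33 CPM, Gad2 from 16.8 to 13.5 CPM, and the GABA UMIs per excitatory nucleus from 0.742 to 0.583 (0.527 to 0.643). The last interval overlaps the non-neuronal one (0.435 to 0.534), so at P21 the intervals were apart only with this nucleus included. Without it, Gad1 at P21 stood at 0.197 UMIs per excitatory nucleus, against 0.202 per non-neuronal nucleus, and Gad2 at 0.285 against 0.210. In inhibitory nuclei the glutamate UMIs per nucleus were 0.329, 0.385, 0.277 and 0.195, against 0.289, 0.305, 0.195 and 0.143, with intervals apart at P8 alone. Of all inhibitory nuclei, 11 of 3459 held 5 or more, with at most 13.

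**Figure D3:**
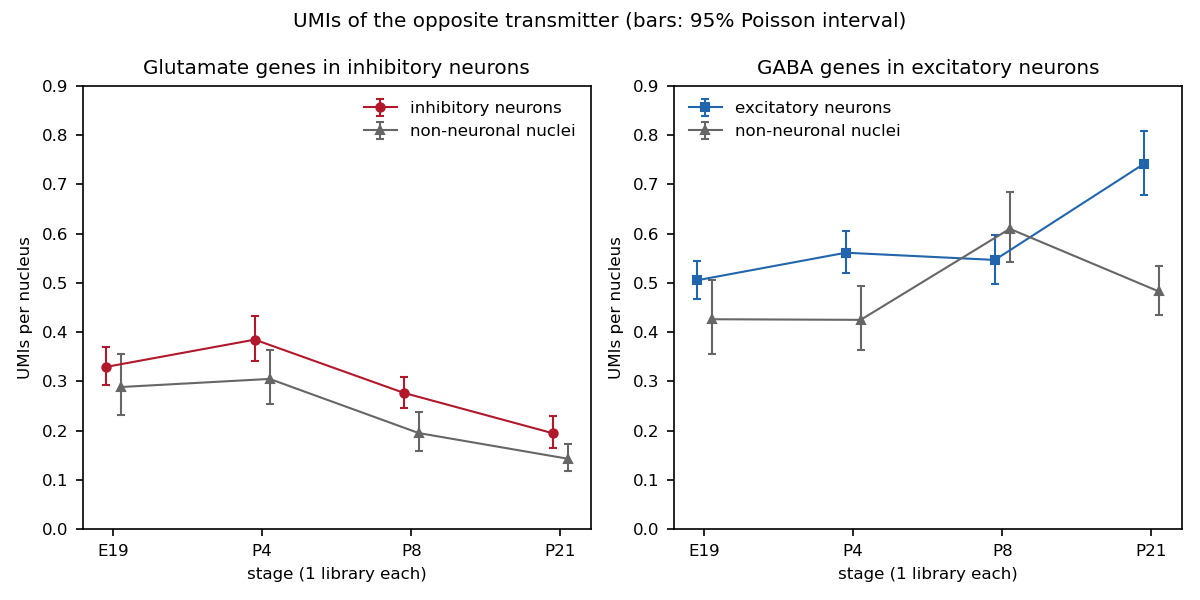
Mean UMIs per nucleus (vertical axis) of the 3 glutamate genes in inhibitory neurons (left) and of the 3 GABA genes in excitatory neurons (right), each beside non-neuronal nuclei of the same library, by stage (horizontal axis); bars are 95% Poisson intervals. The GABA value of excitatory neurons at P21, 0.742, includes 109 UMIs of 1 nucleus and is 0.583 without it.

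The ratios among the GABA genes differed between the groups. Gad1 UMIs per Gad2 UMI were 0.508, 0.534, 0.634 and 0.643 in inhibitory neurons, 1.00, 0.824, 1.30 and 0.752 in excitatory neurons, and 1.41, 1.51, 1.60 and 0.963 in non-neuronal nuclei. Over the 4 libraries the ratio was 0.589 (0.574 to 0.605), 0.932 (0.851 to 1.02) and 1.27 (1.10 to 1.47), and these pooled intervals did not overlap. Within single libraries the excitatory interval overlapped the non-neuronal one at E19, P8 and P21, and the inhibitory one at P21. Slc32a1 UMIs per Gad2 UMI were 0.176 (0.169 to 0.183), 0.432 (0.384 to 0.484) and 0.473 (0.391 to 0.570) in the same order, and here excitatory neurons and non-neuronal nuclei overlapped.

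A nucleus was called mixed when it held at least 1 UMI of Gad1, Gad2 or Slc32a1 and at least 1 of Slc17a6, Slc17a7 or Slc17a8. Mixed nuclei made up 23.3% (20.6 to 26.2), 26.2% (23.0 to 29.5), 20.6% (18.2 to 23.1) and 15.0% (12.5 to 17.8) of inhibitory nuclei from E19 to P21, and 26.3% (24.0 to 28.8), 29.9% (27.4 to 32.6), 34.9% (31.8 to 38.2) and 36.8% (33.2 to 40.5) of excitatory nuclei. In non-neuronal nuclei the share was 7.87%, 9%, 6.64% and 4.89%. A GABA UMI was found in 96.4% to 99.6% of inhibitory nuclei and a glutamate UMI in 84.7% to 91.9% of excitatory nuclei. Such a nucleus is mixed with 1 UMI of the opposite side, whereas a non-neuronal nucleus needs UMIs of both sides. The gap to non-neuronal nuclei therefore follows in part from the definition, and no expression is read from it. As counted, the inhibitory share was highest at P4 and lowest at P21, and the excitatory share rose from each stage to the next. The GABA level of excitatory neurons went the other way, from 58.6 to 34.6 CPM between E19 and P21, while their depth more than doubled, so no order is read from the rise.

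After thinning to 2300 UMIs the mixed share was 8.73%, 8.81%, 4.78% and 2.30% in inhibitory neurons, 6.13%, 4.23%, 3.81% and 2.05% in excitatory neurons and 2.62%, 4.25%, 1.24% and 1.42% in non-neuronal nuclei. The same limit of the definition holds for the thinned shares. At this depth the P21 share was the lowest of the 4 libraries in both neuron classes, and at P21 the intervals of all 3 groups overlapped. Within each library, excitatory nuclei were parted into 4 equal groups by depth, and the shallowest had the lowest mixed share and the deepest the highest: at P8 the 2 ends were 26.3% and 44.7%. Inhibitory nuclei showed the same order of the 2 ends at E19, with 18.8% and 28.7%, and a higher share at the deep end at P4, with 22.7% and 31.9%. At P8 the ends were 21.3% and 22.1%, and at P21 11.4% and 15.1%. With at least 2 UMIs of each side the share was 4.70%, 4.61%, 4.23% and 2.16% in inhibitory and 3.89%, 6.80%, 7.15% and 8.65% in excitatory nuclei.

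**Figure D4:**
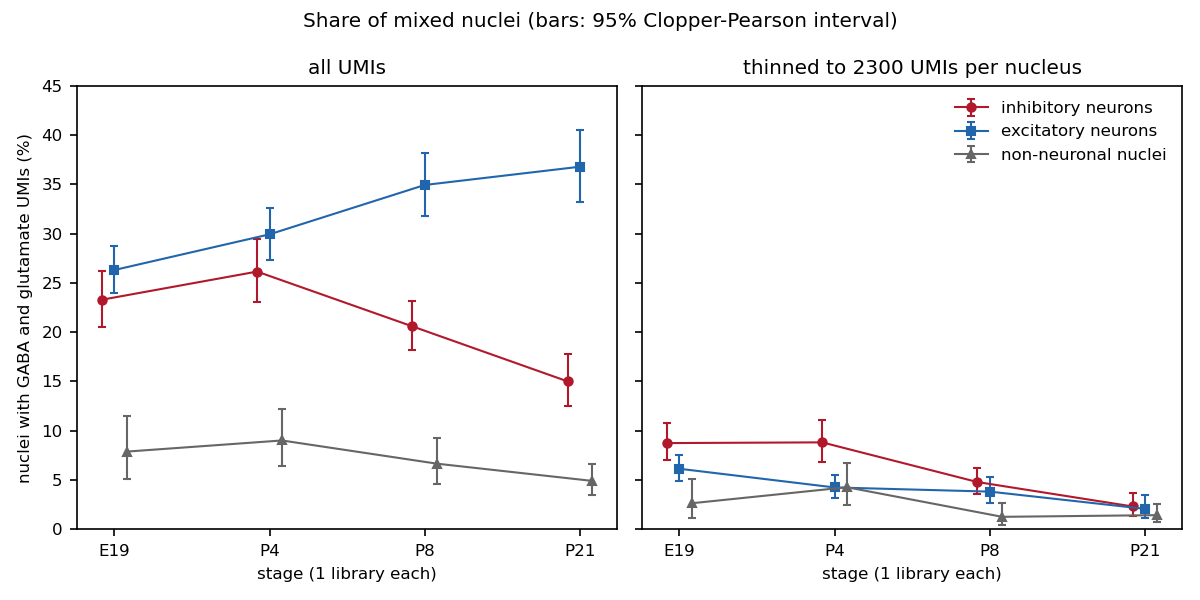
Share of nuclei with at least 1 GABA and at least 1 glutamate UMI (vertical axis, percent) by stage (horizontal axis, 1 library each), with all UMIs (left) and with each nucleus thinned to 2300 UMIs (right), in inhibitory neurons, excitatory neurons and non-neuronal nuclei; bars are 95% Clopper-Pearson intervals. The excitatory share rises from 26.3% to 36.8% with all UMIs and falls from 6.13% to 2.05% after thinning.

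Most mixed nuclei were mixed by 1 UMI. In 591 of 736 mixed inhibitory nuclei (80.3%) and 941 of 1267 mixed excitatory nuclei (74.3%) the opposite side had exactly 1 UMI. Among all mixed inhibitory nuclei, also those with more than 1 opposite UMI, Slc17a6 was the most frequent glutamate gene in every library. From E19 to P21 it was present in 95.2%, 89.6%, 81.7% and 73.9% of them. Slc17a8 was present in 6.25%, 7.77%, 19.6% and 25.2%, which were 13, 15, 44 and 28 nuclei. In mixed excitatory nuclei over the 4 libraries, Gad1 was present in 48.0%, Gad2 in 43.8% and Slc32a1 in 26.2%. Mixed excitatory nuclei were somewhat deeper than the others of their class, with median depths of 12774 and 11034.5 UMIs.

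Within single libraries the mixed share of subtypes overlapped widely, whereas the ends of the pooled order did not overlap. Over the 4 libraries it ranged among inhibitory subtypes from 14.9% (10.4 to 20.4) in IN7 to 26.2% (21.5 to 31.4) in IN5, and among excitatory subtypes from 22.3% (16.5 to 29.0) in EN9 to 39.1% (30.8 to 47.9) in EN13. These pooled shares mix stages in unlike parts: of 215 IN7 nuclei, 86 were from P8 and 64 from P21. Of 184 EN9 nuclei, 78 were from P8 and 45 from P21, where the excitatory share was highest. EN9 was the lowest excitatory subtype at E19, P4 and P21. In each single library the interval of the highest subtype overlapped that of the lowest, thinned or not. After thinning, IN4 stood at the top of the inhibitory order at P4 and P8, at 18.1% (10.5 to 28.0) and 9.52% (4.66 to 16.8).

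How even the mixture was could be read in nuclei with 4 or more transmitter UMIs. These were 2872 inhibitory (83.0% of the class), 1648 excitatory (40.3%) and 19 non-neuronal nuclei (0.967%). The GABA share of those UMIs was between 0.25 and 0.75, called balanced, in 5.93% (4.27 to 7.98), 6.76% (4.87 to 9.09), 3.71% (2.58 to 5.14) and 1.60% (0.801 to 2.84) of inhibitory nuclei and in 22.6% (18.7 to 26.9), 22.7% (19.2 to 26.5), 26.6% (21.9 to 31.6) and 23.1% (18.8 to 27.8) of excitatory nuclei. All such UMIs were of GABA genes in 72.7%, 70.4%, 77.6% and 83.9% of inhibitory nuclei, and all were of glutamate genes in 53.9%, 52.9%, 47.2% and 48.9% of excitatory nuclei. Excitatory nuclei had fewer transmitter UMIs to judge by, since Slc17a6 is the only abundant gene on their side, and 343 of the 1648 lay within 0.05 of a limit of the range. Of the 19 non-neuronal nuclei, 12 were balanced (63.2%, 38.4 to 83.7), a higher share than in either neuron class. At 4 UMIs, 1 GABA UMI alone makes a nucleus balanced. A GABA UMI also helps an excitatory nucleus reach 4 UMIs, so this minimum can raise the excitatory share, and no expression is read from it. With 8 or more UMIs required, the balanced share was 11.1% to 18.0% in excitatory and 0.436% to 2.26% in inhibitory neurons.

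**Figure D5:**
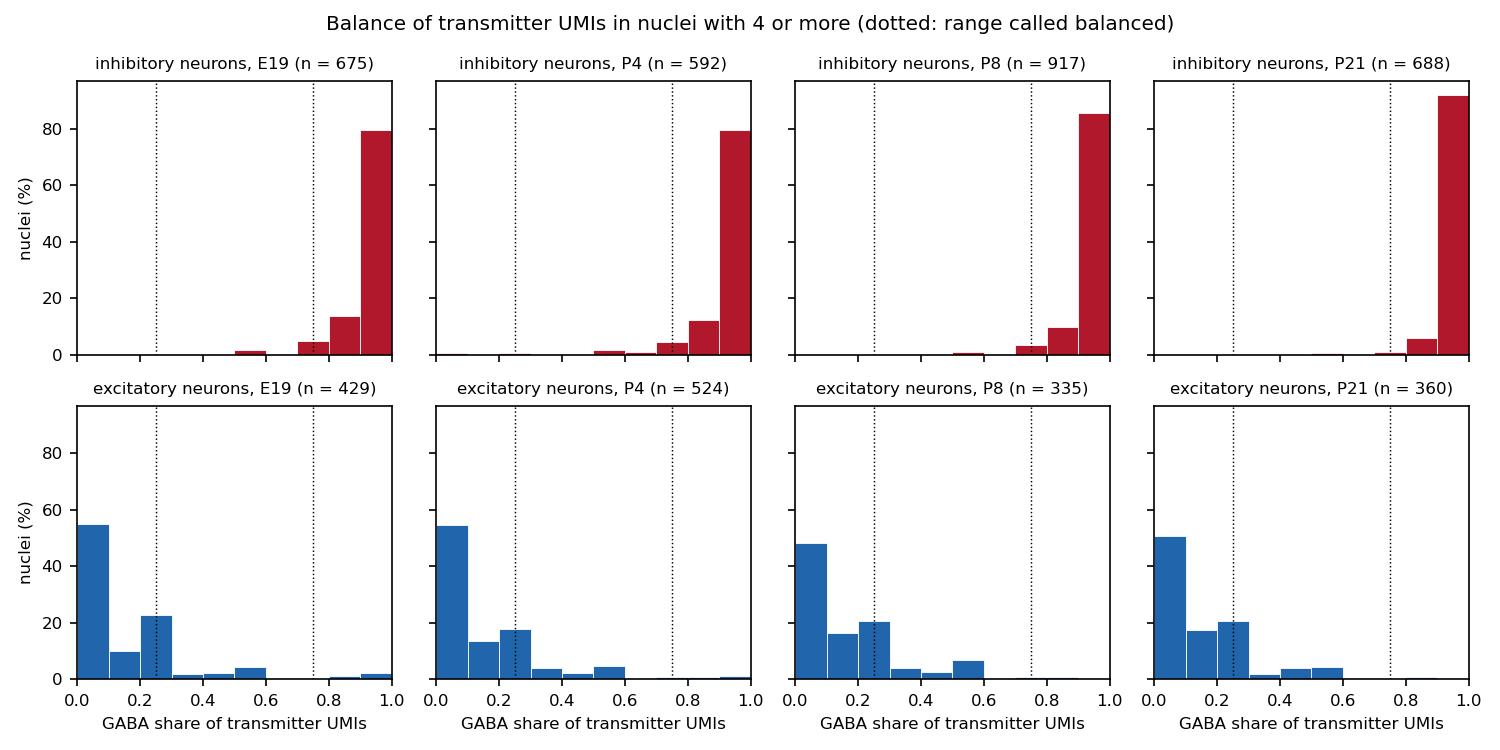
Distribution of the GABA share of transmitter UMIs (horizontal axis, 0 to 1 in steps of 0.1) over nuclei with 4 or more such UMIs (vertical axis, percent of those nuclei), for inhibitory (top) and excitatory neurons (bottom) at each stage; dotted lines mark the range called balanced. Inhibitory nuclei pile up near 1, and excitatory nuclei near 0 with a tail that reaches past 0.25 in every library.

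Nuclei whose transmitter UMIs went against their class were rare. All of 4 or more transmitter UMIs were of GABA genes in 9, 3, 0 and 1 excitatory nuclei from E19 to P21, and of glutamate genes in 1, 4, 0 and 1 inhibitory nuclei. Of the 40 excitatory nuclei with 5 or more GABA UMIs, 15 were from E19 and 15 from P4. EN1 held 11 and 8 of these. The subtype made up 514 of 1338 excitatory nuclei at E19 and 419 of 1206 at P4. The 11 at E19 together held 28 Gad1, 86 Gad2 and 15 Slc32a1 UMIs against 12 of Slc17a6.

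Genes that separated the 2 classes were compared between mixed and other nuclei of a class. The inhibitory list held Gata3, Tal1, Sox14, Otx2, Lhx1, Nxph1 and Pax7, and the excitatory list Ebf1, Ebf3, Pou4f1 and Etv1, all regulators of transcription but for the secreted ligand Nxph1. Both lists rest on earlier results of these nuclei. All 7 genes of the first list were past the doubling rule in all 4 libraries, and 3 of 4 of the second were. Summed, the inhibitory list stood at 381, 446, 274 and 317 CPM in mixed excitatory nuclei. In the other excitatory nuclei it stood at 329, 364, 254 and 319 CPM. Most of each sum was Nxph1, at 342, 417, 255 and 301 CPM in mixed and 286, 344, 238 and 312 CPM in other nuclei. The fold of mixed over other excitatory nuclei had an interval above 1 at E19 for Nxph1 alone of this list. At P4 this held for Nxph1, Tal1 and Pax7, with Tal1 at 5.09 and Pax7 at 3.82 CPM in mixed nuclei. At P8 it held for Pax7, and at P21 for Tal1, Otx2 and Pax7. The excitatory list stood at 343, 100.4, 131 and 130.0 CPM in mixed inhibitory nuclei and at 326, 175, 159 and 95.9 CPM in the other inhibitory nuclei. The intervals of mixed and other nuclei were apart for the inhibitory list at E19 and P4, where mixed nuclei were higher, and for the excitatory list at P4 and P8, where they were lower, and P21, where they were higher. Every one of these 8 sums in mixed nuclei was below the sum in the opposite class, at most 446 against at least 783 CPM. Markers of other cells also differed: the 4 astrocyte markers stood at 45.4 CPM in mixed and 20.2 CPM in other inhibitory nuclei at P21. The 3 leptomeningeal markers stood at 55.8 and 31.0 CPM in those of P4, and the 6 oligodendrocyte lineage markers at 291 and 212 CPM in mixed and other excitatory nuclei at P21. In mixed and other excitatory nuclei at P4 the latter list went the other way, at 70.1 and 102 CPM. Their part in the differences was not tested.

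Other genes that handle these transmitters were counted by the same rule. None of the 6 genes for GABA and glycine handling, the 11 for glutamate handling and the 13 for other transmitters was past the doubling rule in all 4 libraries, where 0.547% and 0.579% of all genes passed, so a count of 0 does not set these lists apart. Of the 13, only 2 reached 20 CPM in a neuron class. From E19 to P21, Abat, which breaks GABA down, was higher at P21 in both classes (91.9 to 208 CPM in inhibitory, 57.1 to 122 CPM in excitatory neurons). Gls2, a glutaminase, was also higher at P21 in both (6.04 to 69.8 and 9.02 to 61.8 CPM). Slc1a2, the main glutamate carrier of astrocytes, was lower at P21 in both (135 to 54.7 and 109 to 43.8 CPM). The 4 astrocyte markers were also lower at P21 in the same profiles, from 43.1 to 24.1 CPM and from 41.6 to 22.7 CPM, and their part in the Slc1a2 values was not tested. The median log2 ratio from E19 to P21 was 0.03 and -0.23 for the GABA and glycine list in inhibitory and excitatory neurons and -0.06 and -0.01 for the glutamate list, against -0.04 and -0.06 over all genes tested.

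Across 56 profiles of a subtype in a library with 50 nuclei or more, the genes most like each member were found by Pearson's r of log2(CPM + 5) among 10415 genes; the profiles share 4 libraries and their depth, and most of the spread is the step between the 2 classes. For Gad1 they were Tal1 (r = 0.97), Asic4 (0.96) and Lhx5 (0.95), for Gad2 Asic4 (0.96), Tal1 (0.96) and Gm27199 (0.95), and for Slc32a1 Tal1 (0.93), Gata3 (0.92) and Asic4 (0.92). For Slc17a6 they were Nrn1 (0.94), Lhx9 (0.93) and Lhx2 (0.91). Gad1 and Gad2 had r = 0.97 with each other, and Slc17a6 had r between -0.84 and -0.82 with the 3 GABA genes. Lhx9, like Slc17a6, was lower at P21 than at E19 in both classes, at 183 and 61.1 CPM in excitatory and 26.3 and 1.42 CPM in inhibitory neurons.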

How the data were processed

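Nuclei of 1 library per stage were sequenced with a droplet method. UMI counts per gene and nucleus were deposited by the authors as 1 matrix, made with Cell Ranger 3.0.2 on a pre-mRNA mm10 reference per the labels. The sources used here do not give the annotation release, use of strand or nucleus filters. The deposited table of nuclei also gives class, subtype, stage and the percent of mitochondrial UMIs as the authors computed them; 5 of its columns of per-nucleus values were not used. Stages were taken from that table.

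UMIs were summed per class or subtype and library and scaled to CPM. Log2 ratios used a pseudocount of 5 CPM, and a gene was called past the doubling rule at 2-fold or more with at least 20 CPM on the higher side. With 1 library per stage no test was possible. Poisson, ratio and Clopper-Pearson intervals at 95% cover counting error only. Each nucleus was thinned to 2300 UMIs with a fixed seed. Scrublet, run through scanpy 1.11.5, called 15 of 9724 nuclei (0.154%), too few to be taken as working, so the 5% highest scores were left out as an alternative. The members and lists were chosen with earlier results of these data known; the rule for named genes gives all 7 members, the 3 most alike genes of each member that reaches 100 CPM, listed genes past the rule, and the highest and lowest subtypes. Alternatives were other pseudocounts, scalings, weightings, UMI minimums and gene sets; leaving out high Scrublet scores or the deepest nucleus was added after seeing the data. The computations were tested on simulated data and ran under Python 3.11.15 with numpy 2.4.6, scipy 1.17.1, pandas 2.3.3 and matplotlib 3.10.9.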

Additional observations from a re-analysis of the deposited data

Results flagged for a closer look

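The mixed share moved in opposite directions in the 2 neuron classes between E19 and P21: it changed by -8.29 percentage points in inhibitory neurons and by 10.5 percentage points in excitatory neurons. The difference between these changes was not tested, as each stage is 1 library. Median depth rose from 6075 to 14009.5 UMIs in inhibitory and from 8051.5 to 19601 UMIs in excitatory nuclei over the same span, and after thinning to 2300 UMIs both shares were lower at P21.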

How the results depend on the processing

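Values are in the order E19, P4, P8 and P21. Thinned to 2300 UMIs, the mixed share was 8.73%, 8.81%, 4.78% and 2.30% in inhibitory and 6.13%, 4.23%, 3.81% and 2.05% in excitatory neurons. With 2 UMIs of each side it was 4.70%, 4.61%, 4.23% and 2.16%, and 3.89%, 6.80%, 7.15% and 8.65%. With vesicular transporters only it was 12.3%, 11.8%, 9.47% and 8.92%, and 6.80%, 7.38%, 10.7% and 8.65%. With Slc17a6 alone the inhibitory share was 16.8% at P8 and 11.1% at P21, and with decarboxylases only the excitatory share was 21.002%, 25.5%, 28.6% and 31.5%. The balanced share with 8 transmitter UMIs was 2.26%, 1.29%, 1.92% and 0.436% in inhibitory and 11.1%, 16.3%, 18.0% and 12.1% in excitatory neurons, and over the range 0.1 to 0.9 it was 21.5%, 20.9%, 15.8% and 9.01%, and 42.7%, 44.3%, 51.6% and 49.2%. These settings count fewer or more nuclei by construction. Leaving out Scrublet calls, the 5% highest scores or the 10% deepest nuclei kept all 8 mixed shares within their intervals. After thinning, the excitatory mixed share was lower at P21 than at E19, where it was higher with all UMIs. The difference of Slc17a8 between the neuron classes at E19, -0.0028 on the log2 scale, changed sign with subtypes weighted alike (0.036) and without the 5% highest scores (0.028), all near 0. Leaving mixed nuclei out moved 26 of 56 member levels beyond their intervals. No paired analysis was possible because the stages, with 1 library each, share no replicate numbers, and leaving out a replicate likewise gives no value. The classes were compared within each library, as descriptions. Depth limits what can be said of Slc6a5, Slc17a7 and Slc17a8, which rest on few nuclei.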

Other observations

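Among genes for other transmitters, Slc30a3, which loads zinc into synaptic vesicles, stood at 21.6, 17.5, 9.93 and 13.5 CPM in inhibitory neurons from E19 to P21 and at 2.51, 0.872, 0.531 and 2.05 CPM in excitatory neurons. Slc18a2, the vesicular monoamine transporter, stood at 8.93, 35.4, 3.71 and 2.46 CPM in excitatory neurons, with its highest value at P4, where Slc6a4, the serotonin carrier, also had its highest, 11.4 CPM. Both genes were named after their values were seen.

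The deposited table also holds a reference label per nucleus, whose meaning is not given in the sources used here. Of 4093 excitatory nuclei, 118 carried the label ISC5, which 57.1% of labelled inhibitory nuclei carried. In those 118 nuclei Gad1 stood at 51.8 CPM, Gad2 at 65.0 CPM and Slc17a6 at 151 CPM. The 2509 excitatory nuclei labelled ESC1 held 16.3, 16.9 and 236 CPM, and the 1464 labelled ESC2 held 16.1, 17.9 and 195 CPM. If the label was assigned from the nuclei's own counts, such a difference is built in, so it is a description only. Their mixed share was 33.9% (25.4 to 43.2) and 30.3% (28.5 to 32.1), which overlapped.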
